A study of Homo sapiens with 9 samples.

Results

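THBD and 5 genes of the Krüppel-like factor family, KLF2, KLF4, KLF6, KLF10 and KLF13, were followed across RNA-sequencing libraries of MOLM13 cells after knockdown of the RNA helicase DDX41. They are 6 of the 30017 genes in the count table, and all 6 had enough counts to be tested. THBD was chosen by its measured level, which fell about 4-fold with both hairpins against DDX41, so its values are given as a description, with no test. The KLF genes were picked as known regulators of thrombomodulin and of the monocyte state.

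MOLM13 is a human leukemia cell line of the monocytic type of acute myeloid leukemia. The 3 groups were cells transduced with lentivirus that encodes a control hairpin (sh-Control) or either of 2 short hairpin RNAs that target DDX41 (shDDX41 #1, shDDX41 #2). Each group had 3 libraries, replicates A, B and D. The vector also encodes green fluorescent protein, and transduced cells were sorted on day 4. Cells with reduced DDX41 could thus be compared with control cells. The study describes the loss of DDX41 as nearly complete with shDDX41 #1 and as partial with shDDX41 #2.

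Thrombomodulin, the product of THBD, is a membrane protein of endothelial cells that is also found on monocytes and on a subset of dendritic cells, where it is known as CD141. It binds thrombin and turns it from clotting fibrinogen to activating protein C, an anticoagulant protease. Krüppel-like factors are zinc finger transcription factors that bind GC-rich and CACCC sequences. In endothelium exposed to flowing blood, the kinases MEK5 and ERK5 act through MEF2 factors to induce KLF2 and KLF4, which in turn activate THBD. In myeloid cells, KLF4 is known as a factor of monocyte differentiation.

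THBD is a gene with 1 exon on the minus strand at chr20:23045633-23049741 (GRCh38, GENCODE). KLF2 lies at chr19:16324817-16327874 on the plus strand, KLF4 at chr9:107484852-107490482 on the minus strand, KLF6 at chr10:3775996-3785281 on the minus strand, and KLF13 at chr15:31326855-31435665 on the plus strand. No other annotated gene touches the exons of these 6 genes. Promoter sequence was at hand for KLF2, KLF4, KLF6 and KLF13, and not for THBD or KLF10. No promoter of a member that fell with shDDX41 #1 could thus be compared. For the promoters of KLF6 and KLF13 only the matches are given, further below. The promoters of KLF2 and KLF4 are shown as sequence. Each run is the 250 bases before the gene start in RefSeq (GRCh38.p14), read 5′ to 3′ on the strand of the gene. They cover chr19:16324576-16324825 for KLF2 and chr9:107489770-107490019 for KLF4. The KLF4 window lies in an intron of a longer GENCODE transcript, and the last bases of the KLF2 window are in the first exon that GENCODE gives. Capitals mark matches, on either strand, to the GC box GGGCGG and, in KLF2, to a MEF2 motif.
KLF2: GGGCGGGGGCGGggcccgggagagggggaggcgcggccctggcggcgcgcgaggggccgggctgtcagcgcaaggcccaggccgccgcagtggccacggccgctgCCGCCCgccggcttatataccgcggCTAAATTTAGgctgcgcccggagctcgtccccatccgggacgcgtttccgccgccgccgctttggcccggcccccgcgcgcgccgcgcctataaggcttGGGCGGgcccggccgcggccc
KLF4: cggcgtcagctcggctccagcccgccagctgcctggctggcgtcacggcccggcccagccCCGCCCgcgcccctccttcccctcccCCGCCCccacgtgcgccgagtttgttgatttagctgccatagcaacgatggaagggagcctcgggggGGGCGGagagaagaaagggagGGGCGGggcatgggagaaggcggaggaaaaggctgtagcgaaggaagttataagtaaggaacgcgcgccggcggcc

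Both windows held 4 GC boxes, and KLF2 also held 1 MEF2 match, which begins 120 bases before the start. Neither window held a CACCC box (CACCC), a CArG box, an AP-1 site or the CRE core TGACGT. GC content was 80% for KLF2 and 69.2% for KLF4. Over 35116 promoter windows of the same length, 42.6% held a GC box and 2.8% a MEF2 match. The window of KLF6 held 2 GC boxes, and that of KLF13 held 3 GC boxes, 1 CACCC box and 1 CRE core. Over all windows the CACCC box was present in 54.7%, the CRE core in 7.1%, the CArG box in 1.16% and the AP-1 site in 4.2%. These matches are a description of the letters and not of binding.

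The libraries held from 16385238 to 20510032 counts. Levels are in CPM, the usual depth-scaled count, with library sizes adjusted by TMM, a scaling that trims extreme genes. DDX41 was lower in every library of both hairpins, at 10.2% of the control mean with shDDX41 #1 and 35.2% with shDDX41 #2. A list of 12 monocytic markers was uneven in sh-Control. Highest were LYZ at 931 ± 54.9 CPM (SD, n = 3), CD68 at 137 ± 15.3, MPO at 112 ± 6.32 and CD33 at 112 ± 5.54. Next came CSF1R, ITGAM and CD36, with means of 22.07, 12.5 and 12.45 CPM. The means of S100A9, S100A8 and VCAN were 1.77, 0.938 and 0.627 CPM. CD14 had 4 counts in the 3 libraries, and FCGR3A had none. Nothing in the labels says that the replicates came from separate transductions, so the p-values measure only the spread between these libraries. In bulk RNA, fewer cells of a type and less RNA per cell cannot be told apart.

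Within the control group, replicate A stood apart for these genes. It was the highest of the 3 sh-Control libraries for 6 of 6 members and for 15 of 15 immediate early genes, which are genes such as FOS, JUN and EGR1 that respond within minutes to growth factors and stress. Over all tested genes it was the highest for 32.6%. The level of replicate A over the mean of replicates B and D was 1.31 for THBD, 1.55 for KLF2, 1.37 for KLF4, 1.40 for KLF6, 1.40 for KLF10 and 1.05 for KLF13. For immediate early genes the same ratio reached 2.46 in FOSB. The summed level of the 15 immediate early genes was 847 CPM in sh-Control A, 596 in B and 562 in D. It was 959.9, 868 and 790.5 CPM in shDDX41 #1 A, B and D, and 697, 648 and 711 CPM in shDDX41 #2. The part of these differences in the results was not tested, and the values of the members without sh-Control A, and the list counts that change without it, are given below. In shDDX41 #1, replicate D was the farthest library of the table from its partners. It was the lowest of its group for 5 of 6 members and for 40.2% of all tested genes.

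**Figure D1:**
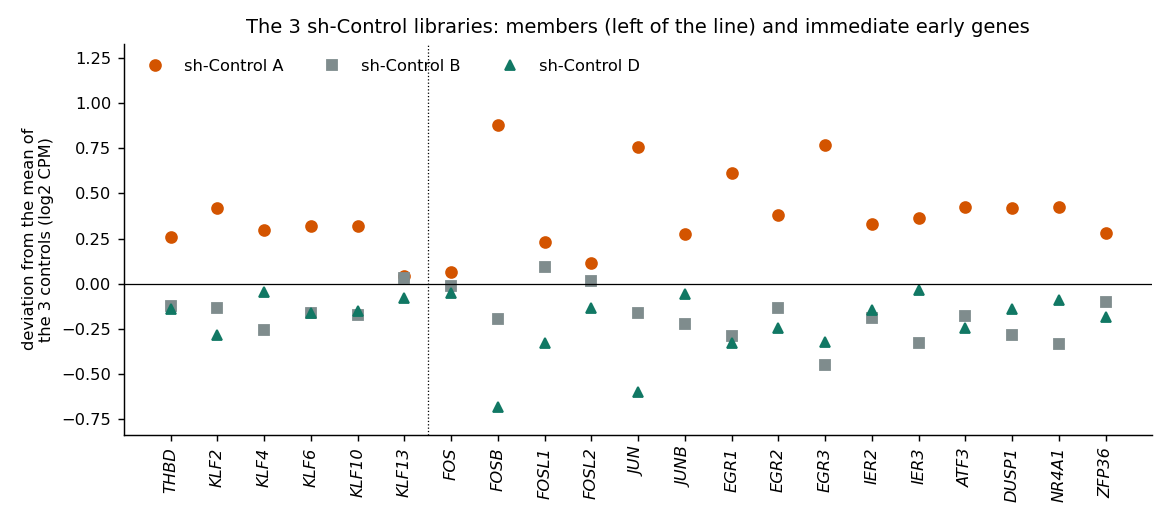
Deviation of each sh-Control library from the mean of the 3, in log2 CPM, for the 6 members (left of the dotted line) and 15 immediate early genes. Circles are replicate A, squares B and triangles D. Replicate A is the highest point for every gene shown.

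THBD was at 131, 100.3 and 99.2 CPM in sh-Control A, B and D. Its level was 25.0, 27.7 and 24.3 CPM with shDDX41 #1 and 31.7, 28.8 and 31.7 CPM with shDDX41 #2. Every hairpin library was far below every control library, and THBD was chosen for that fall. The shDDX41 #1 libraries all lay below the shDDX41 #2 libraries, the closest at 27.7 and 28.8 CPM. Hairpin groups did not overlap in 57.7% of all tested genes. Means over 3 libraries were 110 ± 17.8 CPM (SD) in sh-Control, 25.7 ± 1.82 with shDDX41 #1 and 30.7 ± 1.67 with shDDX41 #2. These are 23.3% and 27.9% of the control mean, or 4.29 and 3.58 times lower. Without sh-Control A they were 25.7% and 30.8%. The log2 fold change was −2.10 with shDDX41 #1, the 15th lowest of 12712 tested genes, and −1.84 with shDDX41 #2, the 16th lowest. Between the hairpins the log2 difference was −0.26. THBD had from 400 to 2351 counts in a library, so counting alone gives an error of 5% at the lowest. Both comparisons share the sh-Control libraries.

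**Figure D2:**
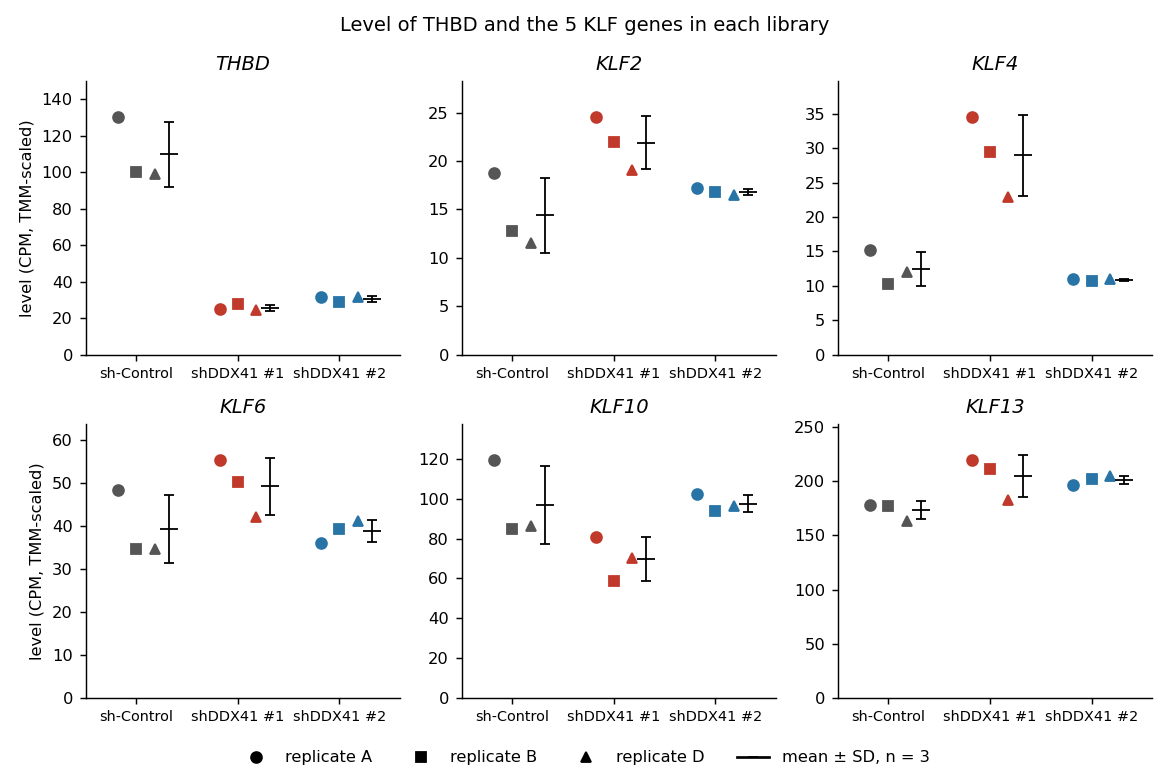
Level of each member in CPM (TMM-scaled) in every library, with 1 panel per gene and vertical axes from 0. Points are libraries (circle A, square B, triangle D), and bars are the mean ± SD of 3. THBD drops to between 24.3 and 31.7 CPM with both hairpins, whereas KLF4 rises only in the shDDX41 #1 libraries.

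None of the 5 KLF members fell with both hairpins. With shDDX41 #1, KLF2, KLF4, KLF6 and KLF13 rose and KLF10 fell. With shDDX41 #2, KLF13 alone passed the test, as a rise. Over all genes, the edgeR quasi-likelihood test (adjusted p under 0.05) called 47.8% with shDDX41 #1, 23.7% higher and 24.1% lower. It called 25% with shDDX41 #2, 11.6% higher and 13.4% lower. In the first comparison 5 of 5 KLF genes were called and in the second 1 of 5. The median log2 fold change of the 5 genes was 0.33 and 0.01, and that of all tested genes was 0.01 and −0.01. Hairpin and control libraries had separate CPM ranges in 53.1% of all tested genes with shDDX41 #1 and in 43.8% with shDDX41 #2. Of the KLF genes this held for KLF2, KLF4, KLF10 and KLF13 with shDDX41 #1 and for KLF13 with shDDX41 #2. Exact permutation tests of single genes with 3 against 3 libraries cannot give a p under 0.1.

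KLF4, a factor of monocyte differentiation and of endothelial quiescence, changed the most of the KLF genes with shDDX41 #1. It was at 15.2, 10.3 and 11.95 CPM in sh-Control A, B and D and at 34.6, 29.5 and 22.9 CPM with shDDX41 #1. With shDDX41 #2 it was at 11.0, 10.8 and 11.0 CPM. All 3 shDDX41 #1 libraries lay above all other libraries, and the shDDX41 #2 libraries lay among the controls. The mean rose from 12.5 ± 2.49 to 28.97 ± 5.88 CPM (SD, n = 3) with shDDX41 #1, a log2 fold change of 1.21 (SE 0.150, adjusted p = 1.2e-05). With shDDX41 #2 the mean was 10.9 ± 0.141 CPM and the log2 fold change −0.20 (95% interval −0.53 to 0.14, adjusted p = 0.40). Without sh-Control A the values were 1.38 and −0.03.

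KLF2, a close relative of KLF4 and a factor of T cell and monocyte quiescence, was at 18.8, 12.8 and 11.5 CPM in sh-Control A, B and D. Its level was 24.6, 21.97 and 19.1 CPM with shDDX41 #1 and 17.2, 16.8 and 16.5 CPM with shDDX41 #2. The shDDX41 #1 libraries were all above the controls, though replicate D exceeded sh-Control A by little, and the shDDX41 #2 libraries fell between sh-Control A and the other controls. With shDDX41 #1 the mean rose to 21.9 ± 2.74 CPM from 14.4 ± 3.90, a log2 fold change of 0.61 (SE 0.150, adjusted p = 0.0038). With shDDX41 #2 it was 16.8 ± 0.351 CPM (log2 fold change 0.23, 95% interval −0.10 to 0.55, adjusted p = 0.30). That second value depended on the controls. Without sh-Control A it was 0.47 (adjusted p = 0.015) and passed the test, and without sh-Control D it was 0.09 (adjusted p = 0.74). The value for shDDX41 #1 without sh-Control A was 0.85.

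KLF6, a factor that is induced by injury and inflammatory signals, was at 48.4, 34.7 and 34.7 CPM in sh-Control A, B and D. Its level was 55.3, 50.2 and 42.1 CPM with shDDX41 #1 and 36.04, 39.3 and 41.2 CPM with shDDX41 #2. The shDDX41 #1 and control values overlapped through sh-Control A. The group means were 39.3 ± 7.92 CPM in sh-Control, 49.2 ± 6.67 with shDDX41 #1 and 38.8 ± 2.59 with shDDX41 #2. The log2 fold change with shDDX41 #1 was 0.33 (SE 0.124, adjusted p = 0.041), and it passed the test only just. The call was kept without sh-Control A, at 0.50, and without shDDX41 #1 D, at 0.44, and was lost when any 1 of the other 7 libraries was left out. With shDDX41 #2 the value was −0.02 (95% interval −0.28 to 0.25, adjusted p = 0.94), and 0.16 without sh-Control A, also not past the test.

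KLF10, an early response gene of TGF-beta signaling that acts as a repressor, lies on chromosome 8 and was the KLF gene that fell. It was at 119.5, 84.7 and 86.2 CPM in sh-Control A, B and D, at 80.9, 58.9 and 70.0 CPM with shDDX41 #1 and at 102, 93.8 and 96.6 CPM with shDDX41 #2. All shDDX41 #1 libraries lay below all others, with replicate A close under sh-Control B. The mean was 69.9 ± 11.0 CPM against 96.8 ± 19.7 in sh-Control, a log2 fold change of −0.47 (SE 0.125, adjusted p = 0.0062). Without sh-Control A the log2 fold change was −0.29 (adjusted p = 0.039). With shDDX41 #2 the mean was 97.6 ± 4.39 CPM (log2 fold change 0.01, 95% interval −0.25 to 0.27, adjusted p = 0.96). Without sh-Control A that value was 0.19 and did not pass the test.

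KLF13, known in T cells as a regulator of the chemokine CCL5, had the highest counts of the 5 KLF members. It was at 179, 177 and 164 CPM in sh-Control A, B and D, at 219.8, 211 and 183 CPM with shDDX41 #1 and at 197, 202 and 205 CPM with shDDX41 #2. Both hairpin groups lay above the controls, by a small margin for shDDX41 #1 D. The rise was to 118% of the control mean with shDDX41 #1 (log2 fold change 0.24, SE 0.0723, adjusted p = 0.013) and to 116% with shDDX41 #2 (0.22, SE 0.0722, adjusted p = 0.039). The call for shDDX41 #1 was lost without sh-Control D (0.20) and without shDDX41 #1 A (0.19). The call for shDDX41 #2 was lost when any 1 of the 6 libraries compared was left out, at log2 fold changes from 0.18 to 0.24. Without sh-Control A the values were 0.26 with shDDX41 #1, still called, and 0.24 with shDDX41 #2.

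**Figure D3:**
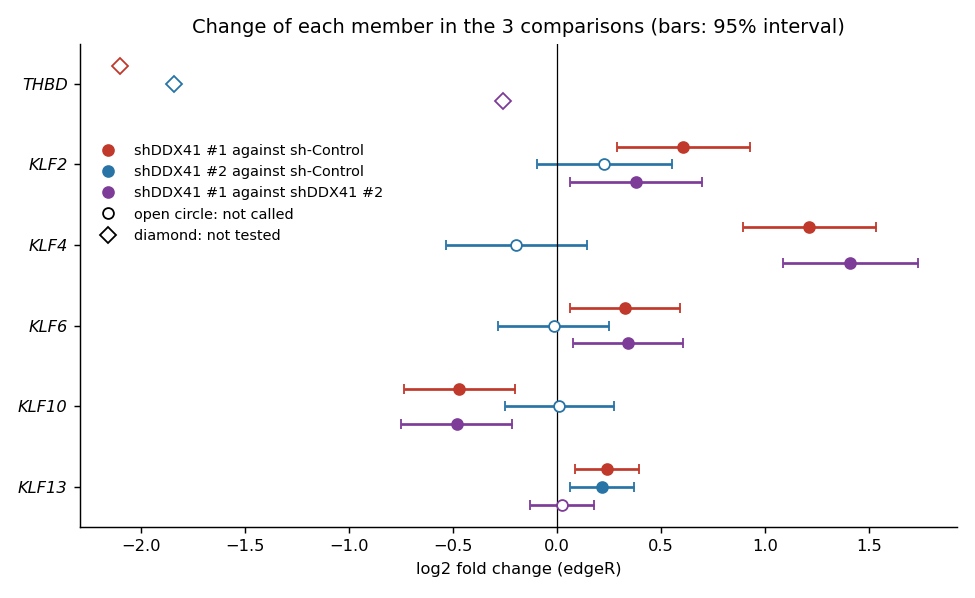
Log2 fold change of each member in the 3 comparisons, with 95% intervals from the edgeR fit for the KLF genes. Filled circles passed the test (adjusted p under 0.05), open circles did not, and diamonds show THBD, which was not tested. KLF2, KLF4, KLF6 and KLF10 lie away from 0 with shDDX41 #1, and their shDDX41 #2 intervals include 0.

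The difference between the hairpins was tested directly, since a call with 1 hairpin and not with the other does not show one. Over all genes 48.8% were called between shDDX41 #1 and shDDX41 #2, 24.6% higher and 24.2% lower with shDDX41 #1, and 57.7% had hairpin groups without overlap. Of the KLF genes, 3 were higher and 1 lower with shDDX41 #1. KLF4 differed by 1.41 on the log2 scale (SE 0.152, adjusted p = 2.9e-06), and the call held whichever library was left out. KLF10 differed by −0.48 (SE 0.125, adjusted p = 0.0052), also with any 1 library left out. KLF6 differed by 0.34 (SE 0.124, adjusted p = 0.033), and the call was lost without shDDX41 #1 A or B or without shDDX41 #2 A or B, at values from 0.25 to 0.35. KLF2 differed by 0.38 (SE 0.148, adjusted p = 0.045), and the call was lost without sh-Control B, shDDX41 #1 A or B, or any shDDX41 #2 library, at values from 0.29 to 0.40. KLF13 differed by 0.02 (95% interval −0.13 to 0.18, adjusted p = 0.81). The groups of KLF2, KLF4, KLF6 and KLF10 did not overlap.

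Divided by the length of annotated exon, the levels can be set against one another between genes. In sh-Control the order was THBD at 26.8 ± 4.33 CPM per kb (SD, n = 3), KLF10 at 24.2 ± 4.92, KLF13 at 18.4 ± 0.871, KLF2 at 7.13 ± 1.93, KLF6 at 6.40 ± 1.29 and KLF4 at 3.41 ± 0.681. The ranges of THBD and KLF10 overlapped, as did those of KLF2 and KLF6, and the other neighbours in the order were separate. With shDDX41 #1, THBD came last at 6.25 ± 0.442 CPM per kb, and its range overlapped that of KLF4, which stood at 7.92 ± 1.61. KLF13 was first there at 21.8 ± 2.06, overlapping KLF10 at 17.5 ± 2.75. KLF2 followed at 10.9 ± 1.36, and KLF6 at 8.01 ± 1.09 overlapped KLF4. With shDDX41 #2 no neighbours overlapped. The order was KLF10 at 24.4 ± 1.10, KLF13 at 21.4 ± 0.431, KLF2 at 8.33 ± 0.175, THBD at 7.48 ± 0.407, KLF6 at 6.33 ± 0.422 and KLF4 at 2.98 ± 0.0388 CPM per kb. These levels assume that all annotated exons are used, because transcript choice is not visible in gene counts.

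**Figure D4:**
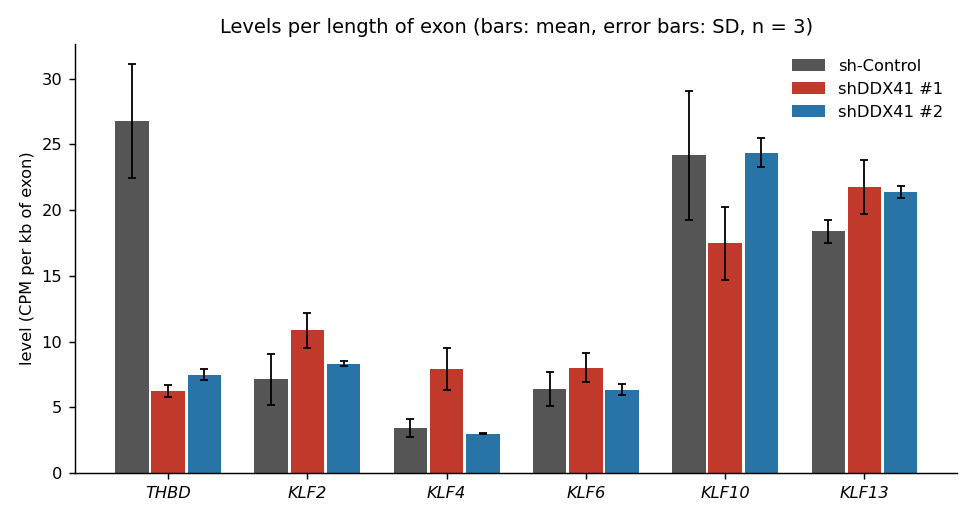
Level per length of exon, in CPM per kb, of the 6 members in the 3 groups. Bars are means of 3 libraries from 0, and error bars are the SD. THBD is the tallest bar in sh-Control, at 26.8, and the lowest gene with shDDX41 #1, at 6.25.

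Spread within groups was compared between members. The deviations of the 9 libraries from their group means, in log2 CPM, had a Pearson correlation of 0.911 for KLF2 with KLF6, 0.904 for KLF4 with KLF6 and 0.829 for KLF2 with KLF4. For THBD with KLF2 it was 0.817, whereas over the libraries without removal of group means it was −0.625. These pairs had the highest values among the members. The other pairs were lower, down to 0.392 for THBD with KLF13 and 0.232 for KLF10 with KLF13. Pairs of genes outside the members were not compared. The points share their libraries and their depth, sh-Control A is among them, and the values are a description only.

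The tested genes whose log2 CPM followed THBD most closely over the 9 libraries, of 9833 genes with a mean of at least 5 CPM, were GATA2 (Pearson r 0.989), FADS1 (0.983), LSS (0.982), SLAIN2 (0.980) and SQLE (0.980). GATA2, a transcription factor of blood stem cells and mast cells, was at 51.8 ± 8.59 CPM in sh-Control, 18.4 ± 1.01 with shDDX41 #1 and 23.5 ± 0.649 with shDDX41 #2. FADS1, a fatty acid desaturase, was at 33.6 ± 2.33, 9.72 ± 1.57 and 11.9 ± 1.11 CPM. For KLF2 the closest genes were NR4A2 (0.971), SKI (0.969) and BCL9L (0.959), and for KLF4 they were ZNF629 (0.996), FZD2 (0.985) and VPS37B (0.982). KLF6 was followed most closely by ATF3 (0.971), COG1 (0.963) and KDM4B (0.938). KLF10 was followed by SH3BGRL3 (0.965), PHLDA1 (0.947) and CEP85L (0.940), and KLF13 by FAM168A (0.989), LYST (0.974) and BCL2L11 (0.973). With 3 groups of 3 libraries, the points of a group share its mean.

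CD93, which encodes another membrane protein of the same lectin family, lies near THBD on the same strand at chr20:23079349-23086340, with 29607 bases and 1 annotated gene of unknown coding status between them. It was at 71.5, 74.95 and 59.3 CPM in sh-Control A, B and D, at 36.1, 37.3 and 29.2 CPM with shDDX41 #1 and at 51.8, 53.9 and 53.1 CPM with shDDX41 #2. All hairpin libraries lay below all controls, where 53.1% and 43.8% of all tested genes had separate ranges with shDDX41 #1 and shDDX41 #2. The fall was to 49.9% of the control mean with shDDX41 #1 (log2 fold change −1.002, SE 0.0989, adjusted p = 1.2e-06) and to 77.2% with shDDX41 #2 (−0.37, SE 0.0957, adjusted p = 0.011). The second call was lost without sh-Control B, at −0.30. The hairpins differed by −0.63 (SE 0.0995, adjusted p = 1.1e-04). The other members of the family, CLEC14A and CD248, had no counts in any library.

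Of 21 other KLF and SP genes, 10 were tested. Called over all tested genes were 47.8% with shDDX41 #1 and 25% with shDDX41 #2. With shDDX41 #1 none was higher and 2 were lower, KLF3 at a log2 fold change of −0.87 (adjusted p = 1.4e-04) and SP3 at −0.40 (adjusted p = 1.1e-04), and the list median was −0.16. KLF3 is a repressor of the family, and SP3 binds GC boxes like SP1. With shDDX41 #2, KLF5 was higher at 0.72 (adjusted p = 3.6e-04), and KLF3 at −0.39 and KLF9 at −0.33 were lower, with a list median of −0.01. The KLF9 call was lost in 6 of 9 fits that left out 1 library. Without sh-Control A, 1 gene of the list was higher and 2 lower with shDDX41 #1, and 1 was higher and none lower with shDDX41 #2.

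Of 12 MEK5, ERK5 and MEF2 pathway genes, 11 were tested. The list holds the kinases and MEF2 factors upstream of KLF2 and KLF4, and also the deacetylases HDAC4, HDAC5, HDAC7 and HDAC9. Its counts and medians thus mix activators with repressors. Not called were 8 with shDDX41 #1 and 9 with shDDX41 #2. Over all tested genes 47.8% were called with shDDX41 #1 and 25% with shDDX41 #2. With shDDX41 #1, MEF2D and HDAC9 were higher and MAP3K2 lower, and with shDDX41 #2, HDAC5 and HDAC9 were higher. HDAC9, a deacetylase that binds MEF2 and represses its targets, rose from 26.4 ± 2.73 CPM to 54.8 ± 2.90 with shDDX41 #1 (log2 fold change 1.05, adjusted p = 1.5e-07) and to 39.6 ± 2.06 with shDDX41 #2 (0.58, adjusted p = 1.9e-04). MEF2D changed by 0.41 (adjusted p = 6.9e-04) with shDDX41 #1 and by 0.00 with shDDX41 #2. The list medians were 0.06 and 0.10. Without sh-Control A no gene of the list was lower with shDDX41 #1.

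Of 13 further factors described for the thrombomodulin gene, 11 were tested. Called over all tested genes were 47.8% with shDDX41 #1 and 25% with shDDX41 #2. With shDDX41 #1, RXRA, a partner of the retinoic acid receptors, was higher at 0.47 (adjusted p = 4.7e-05). ETS1, HIF1A, SP3 and NFKB1 were lower, and ETS1, a factor of endothelial and lymphoid genes, fell from 10.3 ± 1.73 to 3.47 ± 0.812 CPM (log2 fold change −1.56, adjusted p = 9.3e-06). With shDDX41 #2 none was higher, and HIF1A, RARA and NFKB1 were lower. RARA, a retinoic acid receptor, fell from 92.9 ± 16.2 to 49.2 ± 1.90 CPM (−0.92, adjusted p = 1.0e-04). HIF1A, the oxygen-regulated factor, was at −0.50 (adjusted p = 1.7e-04) and −0.44 (adjusted p = 0.0015). The list medians were −0.15 and −0.11. Without sh-Control A, 3 genes were lower with shDDX41 #1 and 2 with shDDX41 #2.

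Genes described as controlled by KLF2 or KLF4 gave 5 tested of 9. With shDDX41 #1, 3 were higher and 1 lower, where 23.7% of all tested genes were higher and 24.1% lower. With shDDX41 #2, 3 were higher and none lower, where 11.6% of all tested genes were higher and 13.4% lower. TXNIP, an inhibitor of thioredoxin, was higher by 0.66 (adjusted p = 2.6e-06) with shDDX41 #1 and by 0.40 (adjusted p = 8.7e-04) with shDDX41 #2. ITGB7, an integrin chain of gut-homing lymphocytes, rose from 14.7 ± 0.157 CPM to 23.7 ± 2.37 and 49.3 ± 4.36. CXCR4, a chemokine receptor, was higher by 0.60 and 0.63. The list medians were 0.60 and 0.40. The list holds genes that these factors activate and genes that they repress.

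Partners of thrombomodulin were mostly too low to test, with 3 of 10 protein C and thrombin receptor genes tested. None was called with shDDX41 #1. With shDDX41 #2, PROS1, the cofactor protein S, was lower at −0.39 (adjusted p = 0.019), and so was PROCR, the protein C receptor, which was under 1.1 CPM in every library. The PROS1 call was lost without sh-Control B or any 1 of the shDDX41 #2 libraries, at values from −0.40 to −0.37. The list medians were −0.03 and −0.44. Without sh-Control A, 4 genes were tested, with 1 higher and none lower with shDDX41 #1 (median 0.11), and none higher and 1 lower with shDDX41 #2 (median −0.34). Of 16 tissue factor and fibrinolysis genes, 10 were tested. With shDDX41 #1, 3 were higher and 5 lower, and with shDDX41 #2, 1 was higher and 3 lower. Among all tested genes, 47.8% were called with shDDX41 #1 and 25% with shDDX41 #2. F3, which encodes tissue factor and starts clotting, fell from 12.9 ± 1.53 CPM to 5.83 ± 0.598 with shDDX41 #1 (−1.14, adjusted p = 8.9e-06) and to 8.30 ± 0.877 with shDDX41 #2 (−0.63, adjusted p = 0.0027). F13A1, the factor that cross-links fibrin, rose from 11.4 ± 0.350 CPM to 35.9 ± 1.97 (1.65, adjusted p = 6.6e-09) and 19.3 ± 1.71 (0.76, adjusted p = 5.3e-05). PLAU, the urokinase protease, was lower with shDDX41 #2 at −0.62 (adjusted p = 2.0e-05). The medians of this list were −0.19 and 0.02, and without sh-Control A 1 was higher with shDDX41 #1.

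Immediate early genes, to which several KLF genes are often counted, were all 15 tested. With shDDX41 #1, 6 were higher and none lower (median 0.24), and with shDDX41 #2, 2 were higher and 4 lower (median −0.28). Over all tested genes 23.7% were higher and 24.1% lower with shDDX41 #1, and 11.6% higher and 13.4% lower with shDDX41 #2. Without sh-Control A the counts were 12 higher and none lower with shDDX41 #1 (median 0.38), and 3 higher and 3 lower with shDDX41 #2 (median 0.06). In that fit 43.5% of all tested genes were called with shDDX41 #1 and 22.8% with shDDX41 #2. FOS, a subunit of the AP-1 factor, was higher by 1.16 (adjusted p = 3.7e-08) and 0.38 (adjusted p = 0.0034). DUSP1, a phosphatase of the MAP kinases, was higher by 1.05 (adjusted p = 1.8e-04) with shDDX41 #1 and stood at −0.46 (adjusted p = 0.095) with shDDX41 #2. FOSL1, another AP-1 subunit, was lower, at −0.83 (adjusted p = 3.6e-04), with shDDX41 #2, whereas FOSL2 was higher by 0.58 (adjusted p = 8.7e-05). Between the hairpins, 11 were higher and 1 lower with shDDX41 #1, where 24.6% of all tested genes were higher and 24.2% lower.

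**Figure D5:**
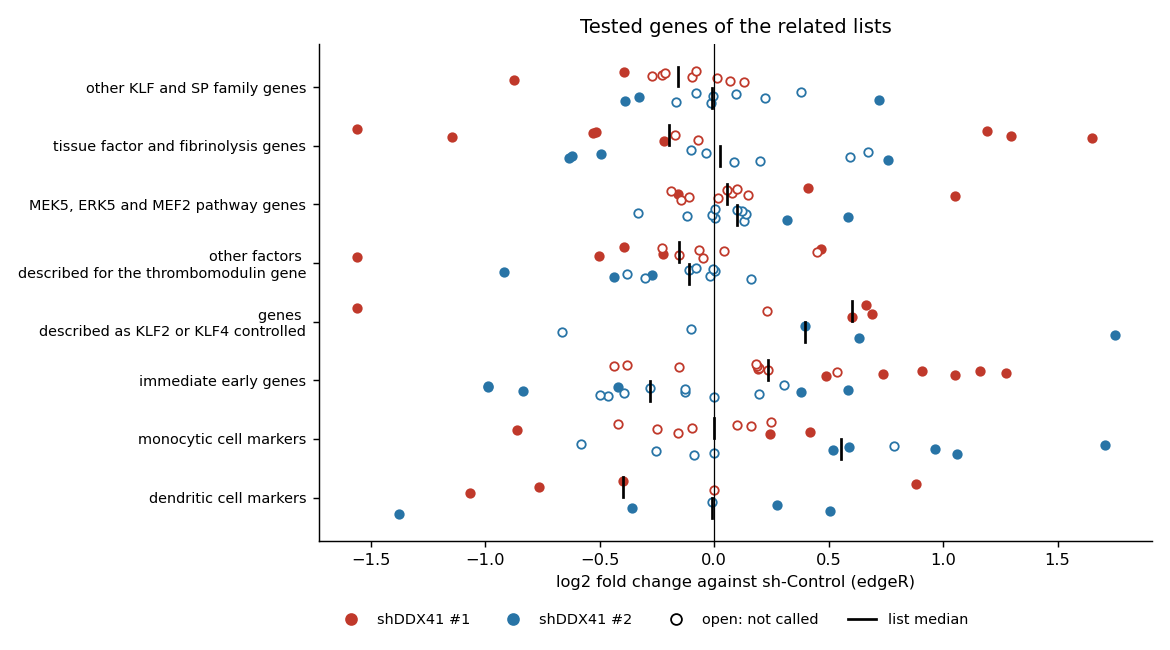
Log2 fold change against sh-Control of every tested gene in 8 related lists, for shDDX41 #1 (red) and shDDX41 #2 (blue). Filled circles passed the test, open circles did not, and vertical bars are list medians. Immediate early genes have medians of 0.24 and −0.28.

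Markers of the cell types in which THBD is known were examined next. Of 12 monocytic markers 10 were tested. The share called over all tested genes was 47.8% with shDDX41 #1 and 25% with shDDX41 #2. With shDDX41 #1, CD68 and CD33 were higher and CSF1R lower, at −0.86 (adjusted p = 3.8e-05), with a list median of 0.00. With shDDX41 #2, S100A9, LYZ, ITGAM, MPO and CD36 were higher and none lower, with a median of 0.55. LYZ, lysozyme, rose from 931 ± 54.9 to 1818 ± 20.6 CPM (0.96, adjusted p = 1.6e-07), and CD36, a scavenger receptor, rose by 1.06 (adjusted p = 3.3e-06). The summed level of the markers was 1315 to 1374 CPM in sh-Control, 1298 to 1395 with shDDX41 #1 and 2281 to 2309 with shDDX41 #2, and LYZ made up most of it.

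Of 10 dendritic cell markers 5 were tested, and the defining markers XCR1 and CD1C had no counts. Among all tested genes 47.8% were called with shDDX41 #1 and 25% with shDDX41 #2. IRF8, a factor of monocyte and dendritic cell fate, was higher with both hairpins, at 0.88 (adjusted p = 7.9e-08) and 0.27 (adjusted p = 0.0067), and CADM1 with shDDX41 #2, at 0.51. BATF3 and ID2 were lower with both hairpins and WDFY4 with shDDX41 #1, and the list medians were −0.40 and −0.01. Without sh-Control A, 2 were lower with shDDX41 #1. Summed levels were 673 to 703 CPM in sh-Control, 980.0 to 996 with shDDX41 #1 and 786 to 824 with shDDX41 #2. IRF8 made up much of that sum, with means of 411, 758 and 497 CPM. Of 8 endothelial markers 1 was tested, PECAM1, at −0.40 and 0.44 with both calls past the test, and CDH5, KDR and EMCN had no counts. The endothelial sum, nearly all PECAM1, ran from 129 to 139 CPM in sh-Control, 102 to 104 with shDDX41 #1 and 179 to 190.0 with shDDX41 #2. Of 10 lymphoid and erythroid markers 5 had no counts, and the sum stayed between 12.4 and 27.6 CPM in all libraries. Of the 2 tested, CD3D and NKG7 were lower with shDDX41 #1, at −1.25 and −0.57, and neither was called with shDDX41 #2. The level of CD3D was low, with means of 1.155 CPM in sh-Control and 0.483 CPM with shDDX41 #1. The part of these shifts in the level of THBD was not tested.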

How the data were processed

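RNA was sequenced from MOLM13 cells of 3 groups, 9 libraries in all. The labels name a stranded library kit and the methods of the study a poly(A) kit without strand. The submitters' processing notes list FastQC 0.11.7, HISAT2 2.0.5 and featureCounts 1.5.2, and the builds hg38 and mm10 without their roles. The deposited values are raw counts per gene symbol, made by the authors and not normalized. All columns were mapped to a library by its label, and 0 were left out.

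Counts were analysed with edgeR 4.0.16 in R 4.3.3. Genes were kept by filterByExpr with a minimum count of 10, which left 12712 (42.3%), and libraries were scaled by TMM. The quasi-likelihood fit used all 9 libraries with the group as the only factor. Two-sided p-values were adjusted over all tested genes (Benjamini-Hochberg), and a call is an adjusted p under 0.05. The SE is the log2 fold change over the square root of F. On simulated data in which 200 of 12574 genes changed 2-fold between shDDX41 #1 and sh-Control, 88% were recovered, with 8 false of 184 calls. The biological coefficient of variation was 0.0768. Levels per kb used exon lengths of GENCODE for GRCh38, which may differ from the annotation counted. Of the 6 members, 4 were printed or described with a RefSeq promoter.

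The members and lists were chosen with earlier results of these data known. Named were the members, DDX41, CD93, up to 2 called genes of at least 1 CPM per list and hairpin with the smallest adjusted p, and the 5 genes most like THBD and the 3 most like each KLF gene. Other list genes are named to account for small counts, and FOSB, JUN and EGR1, the untested and zero-count markers and the monocytic markers at the start were named after their values were seen. The alternatives were DESeq2 size factors, upper quartile factors, library size only, 2 other filters, the DESeq2 1.42.0 Wald test, limma voom (limma 3.58.1), the 6 compared libraries alone, the replicate letter as a block, and each library left out. The list counts without sh-Control A were added after the data were seen. The result of 1 further list gene is not reported here, and it stays in the list counts and medians.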

Additional observations from a re-analysis of the deposited data

Results flagged for a closer look

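The effects of the 2 hairpins, each against sh-Control, were compared by testing shDDX41 #1 against shDDX41 #2 with edgeR. Taken here were the 5 KLF members, CD93 and DDX41, the last being the target of both hairpins. Of the 5 KLF members, 3 were called higher and 1 lower with shDDX41 #1, and CD93 was called lower. Over all tested genes 24.6% were called higher and 24.2% lower. DDX41 also passed, but as the target of both hairpins it is given for its value and not counted with the others. With 1 library left out, the call was lost in 6 of 9 fits for KLF2 and in 4 of 9 for KLF6. Genes of the related lists differed between the hairpins too and are not gone through here. On the log2 scale, KLF2 was higher with shDDX41 #1 by 0.38 (adjusted p = 0.045), KLF4 by 1.41 (adjusted p = 2.9e-06) and KLF6 by 0.34 (adjusted p = 0.033). Lower with shDDX41 #1 were KLF10 at −0.48 (adjusted p = 0.0052), CD93 at −0.63 (adjusted p = 1.1e-04) and the targeted gene DDX41 at −1.79 (adjusted p = 2.2e-09). For each of these genes all 3 libraries of one hairpin lay beyond all 3 of the other, as they did for 57.7% of all tested genes. The knockdown of DDX41 itself differed between the hairpins, so hairpin sequence and depth of knockdown cannot be told apart.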

How the results depend on the processing

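Over the alternatives, 231 of 270 values of the KLF genes kept their direction and side of the threshold, as did 54 of 54 values of THBD in direction. With library size only, KLF6 with shDDX41 #1 was 0.317 and KLF13 with shDDX41 #2 was 0.197, neither past the threshold, and KLF10 with shDDX41 #2 was −0.00642 against 0.01. KLF6 was 0.327 and not called with the 6 compared libraries alone. Upper quartile factors turned KLF6 with shDDX41 #2 to 0.0166, and DESeq2 size factors left KLF2 between the hairpins at 0.374 and not called. The cause was not tested. Upper quartile factors also moved the share of calls that were higher from 49.5% to 61.1% with shDDX41 #1, from 46.3% to 55.8% with shDDX41 #2 and from 50.3% to 56.9% between the hairpins.

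With 1 library left out, values with shDDX41 #1 ran from −2.17 to −1.96 for THBD, 0.466 to 0.848 for KLF2, 1.07 to 1.38 for KLF4, 0.237 to 0.502 for KLF6, −0.584 to −0.291 for KLF10 and 0.191 to 0.326 for KLF13. With shDDX41 #2 they ran from −1.91 to −1.70, 0.0858 to 0.467, −0.309 to −0.0319, −0.101 to 0.161, −0.072 to 0.19 and 0.176 to 0.238, in the same order. Between the hairpins they ran from −0.321 to −0.218, 0.286 to 0.471, 1.26 to 1.55, 0.246 to 0.444, −0.603 to −0.374 and −0.0335 to 0.101. Genes called ran from 5368 to 6256, 2054 to 4248 and 5169 to 6328. The extremes of the second range were the tables without shDDX41 #2 B and without shDDX41 #1 D.

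No label says what the replicate letters mark, so they were not taken as pairs in the main fit. Deviations from group means of sh-Control and shDDX41 #1 libraries with the same letter had correlations of 0.0725 (A), 0.158 (B) and 0.243 (D). With different letters these 2 groups gave −0.184 to 0.0664. Same-letter pairs with a shDDX41 #2 library gave −0.0574 to 0.0225. A fit with the replicate block changed no call of a KLF gene, and genes called were 6351, 3570 and 6503 against 6078, 3174 and 6204. KLF2 with shDDX41 #1 was 0.618 in the replicate block fit. Of 773 values of the other named genes 761 kept their side of the threshold, and of the other 12, 7 were KLF9, 4 PROS1 and 1 CD93. Counting error alone was at most 7.45% for a member in a library, the largest for KLF4.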
